A study of Mus musculus with 12 samples.

Results

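The Obox genes are a mouse family of homeobox transcription factors. The members were the genes with a symbol from Obox1 to Obox8 that both deposited tables list, which gave Obox1, Obox2, Obox3, Obox5, Obox6 and Obox7, or 6 of the 17012 genes shared by the tables. No row of both tables carries the symbol Obox4 or Obox8, and these are not analysed here. RNA was profiled in 2-cell embryos, in 4 groups of 2 libraries each, named here by group and replicate letter (control A, control B). Control embryos, labelled WT, received the RNA-cutting enzyme RfxCas13d or control reagent alone, and knockdown embryos, labelled Eif1ad3_KD, received reagents directed at Eif1ad3 and its variants. The labels give these reagents as guide RNA with RfxCas13d mRNA at the 1-cell stage of CF1 embryos in one place and as morpholino oligos with Cas13d protein in oocytes in another. His and IgG libraries both come from embryos labelled Eif1ad3_OE, whose zygotes received in vitro transcribed Eif1ad3-6xHis mRNA at 200 ng/uL. RNA was recovered from lysates of 200 cells per replicate on beads coated with an antibody to the His tag, or with IgG as the negative control. The pulldown therefore reads RNA from embryos with injected Eif1ad3 mRNA, set against IgG beads and not against embryos without it. Nothing in the labels says whether replicates came from separate collections, so p-values measure only the spread between these libraries.

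Obox proteins bind DNA through a homeodomain related to that of Crx, from which the family arose by tandem duplication. Obox1, Obox2, Obox5 and Obox7 are transcribed in the growing oocyte, and the embryo inherits their mRNA as maternal copies. Obox3, like Obox4, is first transcribed when the genome of the 2-cell embryo becomes active. Embryos that lack both the maternal and the zygotic Obox supply activate their genome poorly and arrest early. Obox6, known also as a factor that promotes reprogramming of fibroblasts to pluripotency, was placed in neither class here. The comparison was therefore between 4 maternal copies and Obox3, with Obox6 beside them.

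In the RefSeq annotation of GRCm38.p6 all 6 members lie on chromosome 7, in the order Obox7, Obox2, Obox1, Obox3, Obox5, Obox6, and 41 of the 53 genes from the first to the last of them are Obox pseudogenes. The submitters' processing notes name the later build GRCm39, so these sequences serve to show the relation between copies and no file coordinates are given. RefSeq promoter sequences were matched for 5 members (Obox1, Obox2, Obox3, Obox5 and Obox7). Those of 2 maternal copies and of Obox3 are shown because Obox1 and Obox5 differed from Obox3 in direction in knockdown A, described below. Each is the 250 bases before the annotated start, 5′ to 3′, and capitals mark the 25-base run that is the longest shared by Obox1 and Obox3:
Obox1 (chr7:15547007-15547256, + strand): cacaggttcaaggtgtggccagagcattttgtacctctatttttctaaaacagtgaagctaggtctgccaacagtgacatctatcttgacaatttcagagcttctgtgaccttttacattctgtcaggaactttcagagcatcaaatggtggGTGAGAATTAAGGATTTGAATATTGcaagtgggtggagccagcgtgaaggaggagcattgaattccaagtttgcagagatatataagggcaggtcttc
Obox5 (chr7:15750120-15750369, + strand): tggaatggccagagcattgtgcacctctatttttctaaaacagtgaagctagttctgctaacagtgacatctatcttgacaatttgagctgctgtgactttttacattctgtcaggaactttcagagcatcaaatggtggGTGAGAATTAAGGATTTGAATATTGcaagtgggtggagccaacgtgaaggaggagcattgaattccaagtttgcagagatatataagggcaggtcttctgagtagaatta
Obox3 (chr7:15639778-15640027, - strand): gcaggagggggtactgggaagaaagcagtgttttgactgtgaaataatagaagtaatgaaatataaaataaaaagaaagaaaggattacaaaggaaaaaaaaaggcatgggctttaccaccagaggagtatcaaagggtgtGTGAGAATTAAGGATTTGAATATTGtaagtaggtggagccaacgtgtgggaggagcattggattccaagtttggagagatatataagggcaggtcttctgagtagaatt

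The same run stood 73, 85 and 84 bases before the start in Obox1, Obox5 and Obox3, and 59 bases before it in Obox7. It was not found in the window of Obox2, which ends at the place where the run begins in Obox1. Whether Obox2 carries the run past its annotated start was not looked at. Aligned parts of the maternal promoters were alike, at 95.4% identity between Obox1 and Obox5 over 239 aligned columns and 96.5% between Obox5 and Obox7 over 226. Obox2 shared 93.0% with Obox5 over 142 columns and 91.0% with Obox7 over 167. Obox3 shared 71.7% with Obox5 over 219 columns and 64.0% with Obox1 over 253. The windows of Obox1 and Obox2, at separate places on the chromosome, shared a stretch of 153 identical bases. This stretch closes the window of Obox2 and opens that of Obox1, so it is the whole of their overlap. Motifs were chosen after the sequences were seen and searched on both strands. TATATAA, which resembles the core promoter element that TBP binds, was found in Obox1, Obox3 and Obox5 and in 3.26% of 27025 RefSeq promoters cut to the same window. The window of Obox7 ends within the part that holds this motif in Obox5, and that of Obox2 ends before it. Neither window could show the motif at that place. TAATCC, the core recognised by Crx-related homeodomains, was found in Obox3 alone among the 5 members, on the minus strand of the window, and in 6.38% of all promoters. CCAAT, the NF-Y box, was found in Obox2, Obox3 and Obox7 and in 34.5% of all promoters. A match of letters is a description and not a bound site. Copies this alike can also share reads in their transcripts, and how reads that match several copies were counted is not given in the sources used here, so values of single copies are uncertain.

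Control and knockdown libraries held 18173916 to 27902514 reads, and pulldown libraries 4678563 to 8364126. All 6 members were detected in every control, knockdown and His library, with at least 236 reads. The 2-cell markers Zscan4d, Zfp352, Tdpoz4, Usp17le and Dppa3 summed to 7505 to 10877 CPM (counts scaled to a fixed library total) in the knockdown table, to 4651 and 4452 CPM in His A and B and to 938 and 1098 CPM in IgG A and B, where 3 and 1 of the 5 were at 0 reads. Dppa3, which is also an oocyte gene, made up most of each sum, at 9088 of 10877 CPM in control A and 4547 of 4651 CPM in His A. Zfp352, a 2-cell stage gene, was at 735 to 871 CPM in the knockdown table, at 16.5 and 36.5 CPM in His A and B and at 0 and 0.427 CPM in IgG A and B. The targeted gene Eif1ad3 was at 839 and 663 CPM in control A and B, against 277 and 377 CPM in knockdown A and B, so both knockdown libraries were below both controls (log2 fold change -1.21, SE 0.33, limma, adjusted p = 0.859). CPM is not divided by transcript length, so levels are compared between libraries and not between genes.

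In knockdown embryos the maternal copies split by replicate. All 4 were higher in knockdown A than in both controls, by 2.21 to 4.44 times the control mean, and 3 of the 4 were lower in replicate B than in both controls. Obox6 was at 61.9% and 57.5% of its control mean in the 2 knockdown libraries, and Obox3 at 67.2% and 92.2%. No member passed at an adjusted p under 0.05 over 13332 genes (limma, Benjamini-Hochberg), and the share of all genes called was 0%, with 726 genes at an unadjusted p under 0.05; edgeR on recovered reads also called 0, and DESeq2 called 15 (0.113%), with no member among them.

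Obox5 was at 3340 and 2673 CPM in control A and B and at 6637 and 3006 CPM in knockdown A and B. Knockdown A stood highest, and knockdown B lay between the controls. In a bulk sample, more cells or embryos holding an mRNA and more of it in each cannot be told apart. Its log2 fold change, on the log2(CPM + 1) scale used for all fold changes here, was 0.58 with a standard error (SE) of 0.41 (limma, adjusted p = 0.868). It was 0.0085 without knockdown A and 1.15 without knockdown B, so the difference rested on knockdown A.

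Obox1 was at 657 and 429 CPM in the controls and at 2413 and 357 CPM in knockdown A and B. Replicate A was therefore above both controls and replicate B below both. Control libraries averaged 543 ± 161 CPM and knockdown libraries 1385 ± 1454 CPM (SD, n = 2 each), a spread as large as the mean. Obox1 had a log2 fold change of 0.80 (SE 0.76, limma, adjusted p = 0.902), and it was -0.57 without knockdown A and 2.18 without replicate B.

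Obox2 was at 235 and 199 CPM in the controls and at 777 and 145 CPM in knockdown A and B. Obox7 was at 203 and 82.4 CPM in the controls and at 600 and 73.2 CPM in knockdown A and B. Both genes repeated the arrangement of Obox1, with the knockdown libraries on opposite sides of the controls. Their log2 fold changes were 0.64 (SE 0.68, limma, adjusted p = 0.912) for Obox2 and 0.70 (SE 0.88, limma, adjusted p = 0.933) for Obox7. Without knockdown A they were -0.57 and -0.81, so for Obox1, Obox2 and Obox7 that single library set the direction.

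Obox3, the copy of the 2-cell embryo, was at 1385 and 1298 CPM in the controls and at 902 and 1236 CPM in knockdown A and B. Both knockdown libraries were below both controls, with replicate B close to the lower control. The log2 fold change was -0.34 (SE 0.31, limma, adjusted p = 0.898), and it lay between -0.57 and -0.12 when each library was left out in turn.

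Obox6 was at 2121 and 2144 CPM in the controls and at 1320 and 1226 CPM in the knockdown libraries. The groups were well apart and the replicates close to each other, with means of 2133 ± 16.1 and 1273 ± 66.5 CPM (SD, n = 2 each). The log2 fold change was -0.74 (SE 0.29, limma, adjusted p = 0.859). It was -0.80 without knockdown A and -0.69 without replicate B, in fits that take a lone knockdown library to vary as the controls do and whose p-values are therefore not given. Obox3 and Obox6 were the 2 of 6 members with both knockdown libraries below both controls, an arrangement that 18.4% of all genes tested showed. No member had both above, against 18.1% of all genes, and 36.5% of all genes were apart in either direction. An unadjusted p under 0.05 with a lower value, as for Obox6, was found for 2.5% of all genes.

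**Figure D1:**
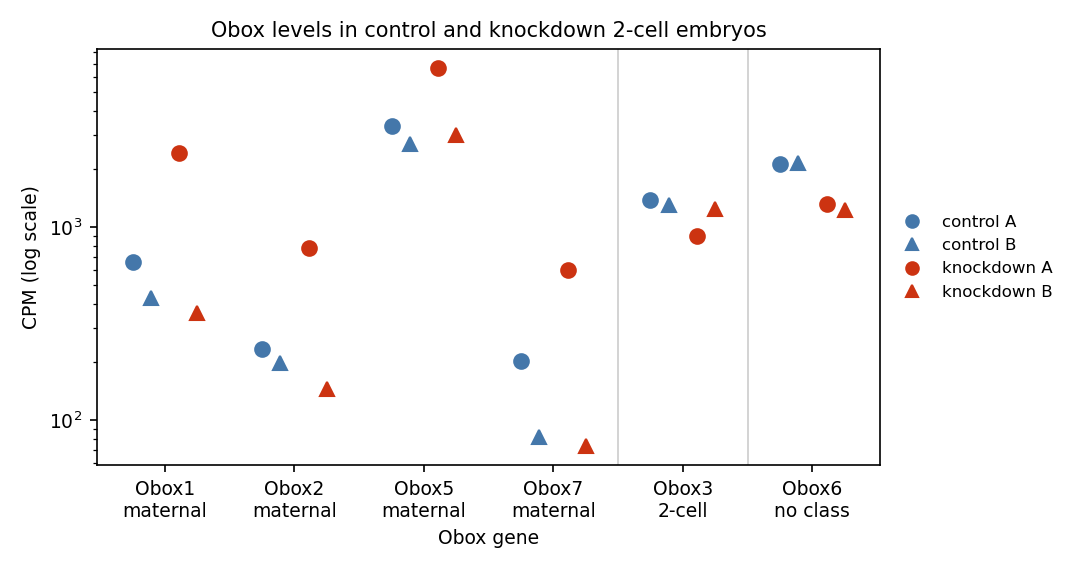
CPM of each Obox gene on a log scale in the 4 libraries of the knockdown table (blue, control; red, knockdown; circle, replicate A; triangle, replicate B), grouped into maternal copies, the 2-cell copy Obox3 and Obox6. Knockdown replicate A is the highest point for each maternal copy, and for Obox6 both knockdown libraries lie near 1273 CPM, below the controls near 2133 CPM.

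As a list, other oocyte-expressed genes were also high in knockdown A and low in knockdown B. The median difference from the control mean over a list of 28 oocyte genes was 0.96 log2 units in knockdown A and -0.75 in replicate B, with the controls at 0.14 and -0.14. Over the 4 maternal Obox copies it was 2.01 and -0.57, with the controls at 0.23 and -0.23. Gdf9, a growth factor secreted by the oocyte, was at 345 and 283 CPM in controls and at 1005 and 91.2 CPM in knockdown A and B. Bmp15, a second growth factor of the oocyte, was at 845 and 728 CPM in controls, and knockdown A and B held 2019 and 1055 CPM, both above the controls. The part of this difference between libraries in the Obox values was not tested.

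A list of 27 measured 2-cell stage genes had medians of -0.09 and -0.34 log2 units in knockdown A and B. Markers of cumulus or granulosa cells, with 4 of 10 listed in the knockdown table, summed to 7.36 and 11.6 CPM in controls and to 13.8 and 5.94 CPM in knockdown A and B. Their part in the Obox values was not tested.

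**Figure D2:**
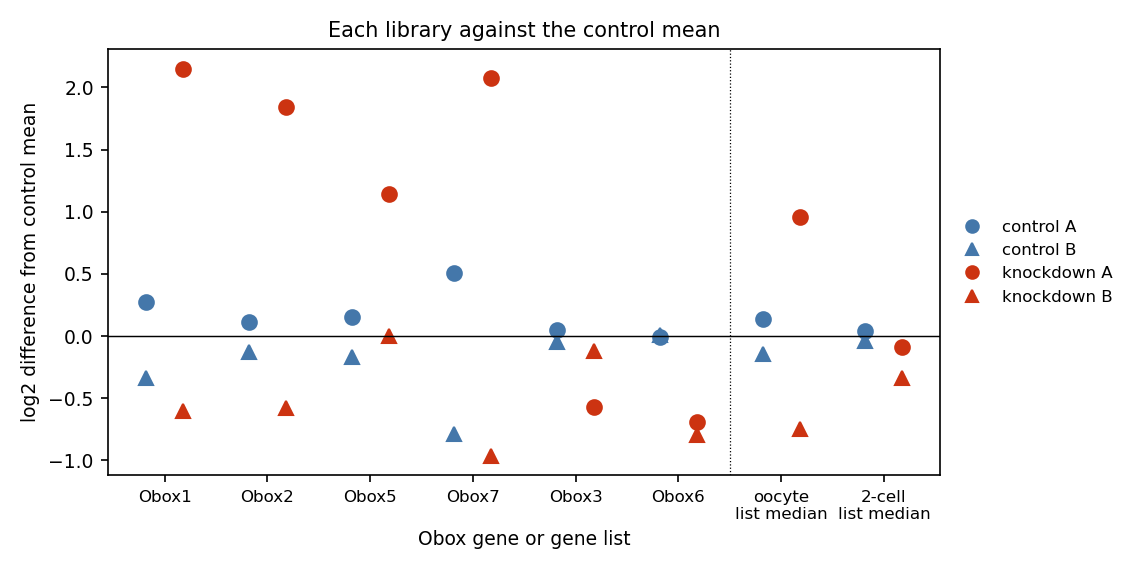
Difference of each library from the control mean in log2 units, for each Obox gene (log2 of the CPM ratio) and for the median of the 28 oocyte genes and of the 27 2-cell stage genes (on log2(CPM + 1)); colours mark groups and shapes replicates. Maternal copies and the oocyte list lie above 0 in knockdown A, and Obox6 lies below 0 in both knockdown libraries.

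Genes that share a role with the family were described from lists. Of 16 paired-like homeobox genes of the oocyte and early embryo, 8 were listed and 6 tested in the knockdown table, and none passed in limma. Their median log2 fold change was -0.20, beside 0.02 over all genes tested, and 3 of the 6 had both knockdown libraries below both controls (18.4% of all genes did). Crxos, a homeobox gene named for its place opposite Crx, was at 1195 and 1033 CPM in controls and at 606 and 520 CPM in the knockdown libraries, with no overlap (log2 fold change -0.98, SE 0.30, limma, adjusted p = 0.859). Of 24 transcription factors of genome activation, 22 were tested and none passed in limma. Their median was -0.40, and 11 of the 22 had both knockdown libraries below both controls and 0 above, beside 18.4% and 18.1% of all genes. Of 27 oocyte genes tested, 1 was below in this sense and 6 above, and of 26 tested 2-cell stage genes 9 were below and 1 above. Nr5a2, a nuclear receptor active in genome activation, was at 187 and 111 CPM in controls and at 80.3 and 67.5 CPM in the knockdown libraries (log2 fold change -0.96, SE 0.39, limma, adjusted p = 0.859). Zscan4d, a 2-cell stage gene, was at 710 and 713 CPM in controls and at 487 and 541 CPM in the knockdown libraries (log2 fold change -0.47, SE 0.30, limma, adjusted p = 0.859).

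In the pulldown, all members were read in both His libraries and unevenly in the IgG libraries. Obox5 was the only member that passed, at 1518 ± 49.0 CPM in His and 259 ± 69.3 CPM in IgG (SD, n = 2 each). That is 1 of 6 members in limma, where 36.6% of 11232 genes tested were called and 35.7% were called higher in His. The median log2 fold change was 3.29 over the members and 2.01 over all genes, so a positive value alone sets no member apart. How many genes were called rested on the tool, with 0 in edgeR on recovered reads (4592 at an unadjusted p under 0.05) and 5513 in DESeq2 (49.1%).

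Obox5 was at 1553 and 1484 CPM in His A and B, on 12990 and 11748 reads, against 210 and 308 CPM in IgG A and B, on 1243 and 1440 reads. Both His libraries were above both IgG libraries, and the replicates of each group were close. The log2 fold change was 2.57 (SE 0.27, limma, adjusted p = 0.0101). It was 2.50 in edgeR (adjusted p = 0.0547), 2.26 in DESeq2 (adjusted p = 1.79e-24) and 2.74 with quantile normalization (limma, adjusted p = 0.140). Without His A or B it was 2.54 and 2.61, and without IgG A or B it was 2.30 and 2.85. Fits that leave 1 library in a group take their spread from the other group alone, so their p-values are not given.

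Obox1 was at 452 and 547 CPM in His and at 0.675 and 158 CPM in IgG A and B, where replicate A held 4 reads and replicate B 741. Both His libraries were above both IgG libraries, and IgG A was nearly empty of Obox1. For Obox1 the log2 fold change was 4.93 (SE 2.62, limma, adjusted p = 0.271), and 1.64 without IgG A and 8.22 without IgG B. Fits with 1 IgG library take their spread from His alone, although the IgG libraries differed far more, so their p-values are not given for the members with such a split. In edgeR and DESeq2 the value for Obox1 was 2.75 and 2.54.

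Obox2 was at 70.3 and 55.1 CPM in His with 0 and 45 reads in IgG A and B (0 and 9.62 CPM). For Obox2 the log2 fold change was 4.28 (SE 1.49, limma, adjusted p = 0.121), and 2.57 and 5.98 without IgG A and B. Obox3 was at 40.8 and 29.8 CPM in His with 0 and 77 reads in IgG A and B (0 and 16.5 CPM). For both genes His lay above IgG in all 4 pairings of libraries, with IgG A empty.

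The log2 fold change of Obox3 was 3.10 (SE 1.72, limma, adjusted p = 0.290), and 1.04 and 5.16 without IgG A and B. It was 1.14 with quantile normalization, 4.76 at a pseudocount of 0.1 and 1.95 at a pseudocount of 5. Obox1, Obox2, Obox3 and Obox5 were the 4 of 6 members with both His libraries above both IgG libraries, an arrangement shown by 54.1% of all genes tested. Obox1, Obox2 and Obox3 reached 1 CPM in 1 IgG library each and so passed the filter only with the help of His, where they were high, and nothing is read from this count. Obox5 reached 1 CPM in both IgG libraries. No member had both below, against 9.06% of all genes, and 63.1% of all genes were apart in either direction. No member was lower in His at an unadjusted p under 0.05, against 2.49% of all genes.

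Obox6 was at 108 and 122 CPM in His and had 0 reads in IgG A and 505 reads, or 108 CPM, in IgG B. IgG B lay between the His libraries, so the groups overlapped. For Obox6 the log2 fold change was 3.47 (SE 2.73, limma, adjusted p = 0.458), and it was 0.09 without IgG A and 6.86 without IgG B. It was 1.19 in edgeR, 0.99 in DESeq2 and 5.13 at a pseudocount of 0.1, so its size depended on how the 0 reads of IgG A were handled.

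Obox7 was at 60.4 and 69.5 CPM in His and at 252 and 2.56 CPM in IgG A and B (1495 and 12 reads). IgG A was the highest library and IgG B the lowest, on either side of His. For Obox7 the log2 fold change was 1.13 (SE 2.50, limma, adjusted p = 0.804), and 4.21 without IgG A and -1.95 without IgG B. It was -1.21 in edgeR and -1.51 in DESeq2 on all 4 libraries, so its direction changed with the tool and with the IgG library kept.

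Members were read unevenly in IgG: IgG A had 0 reads of 3 members and 4 reads of Obox1 while it held 1495 reads of Obox7. Among the 4078 genes whose mean in His lay in the members' range, 35.3 to 1518 CPM, 866 and 814 had 0 reads in IgG A and B. That range was set in His, which fixes that these genes have reads there, so no contrast with His is drawn from it. A count of 0 in IgG A allows up to 0.506 CPM (3 reads), which covers counting error only.

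**Figure D3:**
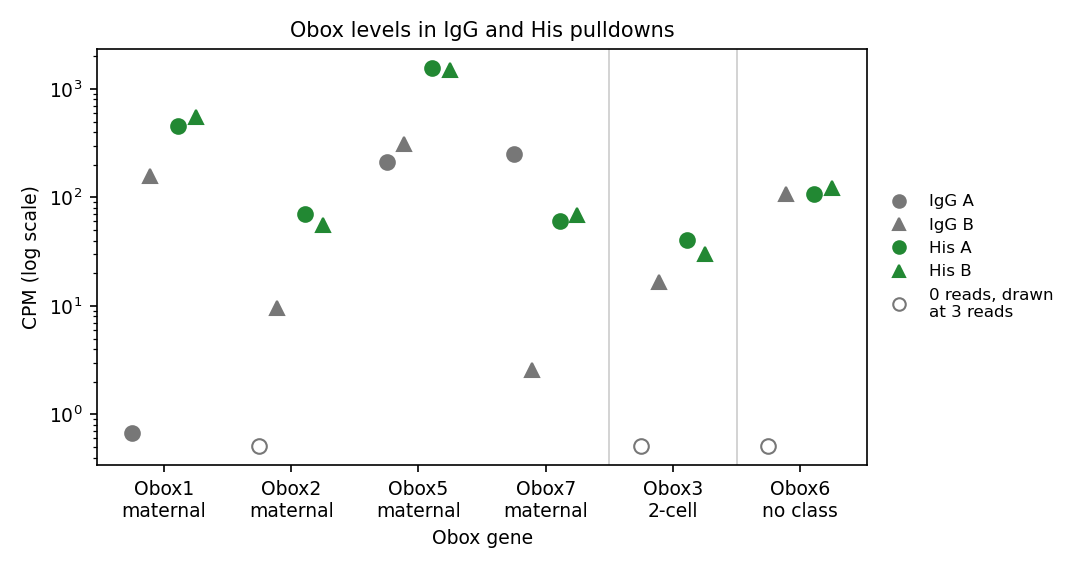
CPM of each Obox gene on a log scale in the IgG (grey) and His (green) libraries, with circles for replicate A and triangles for replicate B; open symbols are 0 reads, drawn at the CPM of 3 reads. The His replicates lie close together for every gene, and the IgG replicates are near each other for Obox5 but far apart for the other 5.

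The maternal copies were then set against Obox3 within each library, which removes the library's scaling. The ratio of summed maternal CPM to Obox3 CPM is not one of molecules, since lengths were not divided out, and only its change between libraries is read. It was 3.20 and 2.61 in control A and B and 11.6 and 2.90 in knockdown A and B. Knockdown replicate B lay between the controls and replicate A above all. The mean log2 ratio, with 1 CPM added to each sum, was 1.00 higher in knockdown than in control embryos, with an SD between replicates of 1.01. Without knockdown A that difference was 0.0036, and without replicate B it was 2.00.

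In the pulldown table the same ratio was 52.4 and 72.3 in His A and B and 29.1 in IgG B. In IgG A, with 0 reads of Obox3, it was at least 914, computed against 3 reads. The mean log2 ratio was -0.92 in His relative to IgG, with an SD between replicates of 2.05, and it was 1.12 without IgG A, so no direction was determined. Its size rests on the 1 CPM added for IgG A, where it sets the ratio below the bound of 914, and with 0.1 CPM added the difference was -2.58. Every pulldown library had a higher ratio than every library of the knockdown table. Those tables come from different experiments, normalized separately, and recovered RNA was set against whole RNA, so the ratios stand side by side with no test.

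Obox6 was set against the maternal copies in the same way. Its CPM divided by the summed maternal CPM was 0.478 and 0.634 in controls, 0.127 and 0.342 in knockdown A and B and 0.0504 and 0.0568 in His. In IgG it was 0 and 0.226 in replicates A and B, so the experiments overlapped, and the His libraries lay below all 4 libraries of the knockdown table. Within the maternal class the ratio of Obox5 to Obox1 CPM was 5.09 and 6.22 in controls, 2.75 and 8.42 in knockdown A and B, and 3.44 and 2.71 in His, so the copies did not keep a fixed ratio between libraries. In IgG A the ratio was 311, on 4 reads of Obox1, and in replicate B it was 1.94.

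**Figure D4:**
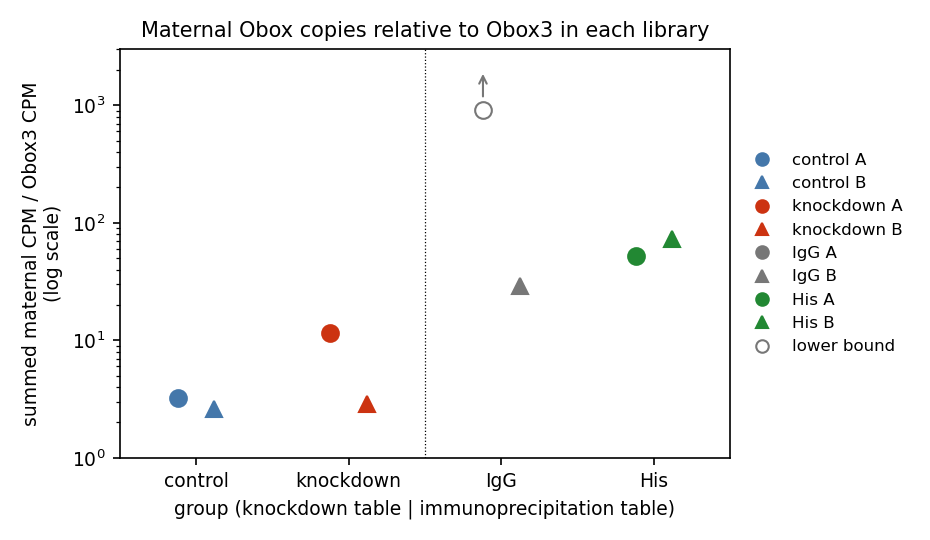
Summed CPM of Obox1, Obox2, Obox5 and Obox7 divided by the CPM of Obox3 in each library, on a log scale; circles are replicate A, triangles replicate B, and the open circle with an arrow is a lower bound. The knockdown table (left of the dotted line) lies at 2.61 to 11.6 and the His libraries at 52.4 and 72.3.

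Of the transcription factors of genome activation, 21 were tested in the pulldown and 7 were called higher in His, with a median log2 fold change of 2.85 beside 2.01 over all genes. None of these 7 reached 1 CPM in both IgG libraries, so they entered the test only with the help of His, where they were high, and their direction was largely set by the filter. Of the oocyte genes, 25 were tested, with 9 called higher and 1 lower and a median of 2.14. Both counts were near the 35.7% of all genes called higher. Of the 2-cell stage genes, 24 were tested, with 12 called higher and 0 lower and a median of 3.05. Among those 12 only Tcstv1 reached 1 CPM in both IgG libraries, at 1.69 and 4.70 CPM. The others entered the test only with the help of His, where they were high, so nothing is read from this count. The values of genes at 0 reads in both IgG libraries depend on the pseudocount, and so do these medians. Crxos was at 198 and 156 CPM in His and at 189 and 164 CPM in IgG. Gdf9 was among the oocyte genes called higher, at 2281 and 2280 CPM in His and 1320 and 1538 CPM in IgG (log2 fold change 0.68, SE 0.10, limma, adjusted p = 0.0164).

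Genes with a pattern like each class were sought among 7412 genes outside the family with a mean of at least 10 CPM in the knockdown table. Likeness was the root mean square difference between log2(CPM + 1) profiles over the 8 libraries, each centred within its table, and its median over all these genes was 1.13 log2 units for the maternal sum and 1.39 for Obox3. Nearest to the maternal sum were Zfp709 and Zfp955b, 2 zinc finger genes, then Fbxw28, an F-box gene, Pramel25, of the Prame-like family, and Trmt1l, related to a tRNA methyltransferase, at 0.19 to 0.25 log2 units. Zfp709, Zfp955b and Trmt1l were at 2.15 to 7.05 CPM in His and at 0 to 0.427 CPM in IgG, under 3 reads. The size of their step from IgG to His, and so their likeness, depends on the 1 CPM added. Fbxw28 was at 641 and 472 CPM in controls, 2026 and 449 in knockdown A and B, 262 and 346 in His, and 68.7 and 74.6 in IgG. Fbxw28 was chosen for likeness to the maternal sum over these same libraries. Its high value in knockdown A and its higher values in His than in IgG follow from that choice. Nearest to Obox3 were Med14, a Mediator subunit, Eif5, a translation initiation factor, Ero1b, an oxidoreductase of the endoplasmic reticulum, Timm29, of mitochondrial import, and Fbxw2, an F-box gene, at 0.09 to 0.20 log2 units. In IgG A all of these but Eif5 were under 3 reads (0.506 CPM), as was Obox3, so their likeness there also depends on the 1 CPM added. Med14 was at 253 and 227 CPM in controls, 186 and 229 in knockdown A and B, 46.3 and 35.6 in His, and 0.338 and 18.8 in IgG. These profiles share libraries and depth, and likeness over 8 of them is a description.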

How the data were processed

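The deposited values are CPM, which the authors made by scaling each gene's read count to a fixed library total. The submitters' processing notes name Trim Galore 0.6.7, HISAT2 2.2.1, featureCounts 2.0.1, edgeR and the build GRCm39, with no roles; the treatment of reads matching several genes is not given in the sources used here. In each of the 8 libraries used, 100% of values were whole multiples (within 0.02 reads) of what 1 read is worth, so reads and totals were recovered. A floor of 3 reads is 0.108 to 0.641 CPM. Per the labels, libraries were amplified by PCR (Smart-seq2) with no molecular identifiers named, so floors cover counting error only. For 4 further value columns of the pulldown the names leave the sample undecided. They were not used, and 2 planned comparisons with input and total RNA were not run.

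Fits used limma 3.58.1 under R 4.3.3 (eBayes with a trend, two-sided) on log2(CPM + 1), keeping genes that reached 1 CPM in 2 or more of the libraries compared, with Benjamini-Hochberg adjustment over all genes tested and a threshold of 0.05. Only groups of the same table were tested against each other. Alternatives were pseudocounts of 0.1 and 5, other filters, median rescaling, quantile normalization, no trend, a replicate block, leaving out each library, and edgeR 4.0.16 and DESeq2 1.42.0 on recovered reads. The scripts were tested on simulated data. Named genes are the members, list genes given as examples, and for each class the 5 genes of nearest profile. The members, classes and lists were chosen with earlier results of these data known. The result of the paired-like homeobox list in the pulldown is not reported here.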

Additional observations from a re-analysis of the deposited data

How the results depend on the processing

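In knockdown against control embryos the 0 genes called in limma (726 at an unadjusted p under 0.05) became 2 with the replicate block and 15 with DESeq2, and ranged from 0 to 1894 when 1 library was left out, where the lone library is taken to vary like the other group. Leaving out 1 library moved the log2 fold change from -0.57 to 2.18 for Obox1, from -0.57 to 1.84 for Obox2 and from -0.81 to 2.21 for Obox7, with the negative values without knockdown A. Obox3 and Obox6 kept their direction under all 14 alternatives, and Obox5 went from 0.0085 without knockdown A to 1.15 without knockdown B. In His against IgG the 4111 genes called fell in number to 2356 under a filter of 5 CPM on the mean, 2142 after median rescaling, 0 after quantile normalization (2339 at an unadjusted p under 0.05) and 0 with edgeR (4592), and ranged from 6 to 7679 when 1 library was left out. Obox7 was at -1.21 with edgeR and -1.51 with DESeq2, and from -1.95 to 4.21 with 1 library left out. The maternal-to-Obox3 log2 ratio ranged from -2.95 to 1.12 with 1 library left out. It was -0.35 with the median over members in place of the sum and -1.57 with Obox6 added to Obox3, beside -0.92. In knockdown against control embryos these 2 settings gave 1.06 and 1.23, beside 1.00. For each, the cause was not tested. The median log2 fold change of all genes, 2.01, was 1.64 after median rescaling, -0.08 after quantile normalization, and 1.56 and 1.30 in edgeR and DESeq2. Replicate letters are not stated to mark shared handling (same-letter deviations correlated at 0.15 and -0.01), and the block changed no call of a member. Leaving out the most abundant member of a class could not be run for Obox3, which is alone in its class. It was not run for the maternal copies either. With 2 libraries a group, a change as large as that of Obox6 did not pass.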

Other observations

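The tables also list Obox pseudogenes, 24 rows in the knockdown table and 22 in the immunoprecipitation table. In 21 and 20 of these rows no library reached 10 CPM. Obox3-ps1 was at 302 and 324 CPM in control A and B and at 187 and 265 CPM in knockdown A and B, the same order of groups as Obox3 (log2 fold change -0.49, SE 0.33, limma, adjusted p = 0.865). Obox3-ps4 was at 133 and 154 CPM in controls and at 110 and 121 CPM in the knockdown libraries (log2 fold change -0.32, SE 0.33, limma, adjusted p = 0.911). Obox3-ps7, the third row to reach 10 CPM in that table, went the other way, at 6.48 and 10.3 CPM in controls and at 11.2 and 21.1 CPM in the knockdown libraries (log2 fold change 0.84, SE 0.55, limma, adjusted p = 0.859). In the pulldown Obox3-ps4 was at 19.5 and 9.98 CPM in His, with 1 and 0 reads in IgG. Obox3-ps1 was at 5.14 and 11.9 CPM in His and at 3.71 and 0 CPM in IgG A and B. Both rows entered the test only with the help of His, so their fold changes are not given. Obox3-ps7 was at 0 and 0.632 CPM in His and at 6.92 and 0 CPM in IgG A and B. These rows were chosen after their values were seen. Reads of Obox3 and its pseudogenes can match both, and their division was not tested.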
